A study of Homo sapiens with 27 samples.

Results

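The p53 target genes described here are 34 genes, named in a fixed list, that the transcription factor p53 is reported to induce or that act on p53 itself, without CDKN1A and, apart from BAX, without the BCL2 family. They were taken by symbol from a table of 58721 genes, all 34 were found, and 33 had enough reads to be tested among 25199 genes. The 27 RNA sequencing libraries came from A375, an established cell line of a human melanoma, which carries an activated BRAF kinase. Control cells carried a guide named GFPsg (genotype WT in the labels), and TADA2B KO cells carried guide TADA2Bsg1 or TADA2Bsg2, here called guide 1 and guide 2, against TADA2B, an adaptor subunit of the SAGA histone acetyltransferase complex. Each of these 3 cell populations received DMSO (the vehicle), 20 nM trametinib (an inhibitor of the MEK kinases) or 1 µM vemurafenib (an inhibitor of mutant BRAF) for 24 h, with 3 libraries in each of the 9 groups. The labels do not say whether a guide population was a clone or a mixture, how the guides were delivered, or whether replicates were grown apart, so each p-value is set against a spread between replicates that may be technical.

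p53 is kept low in growing cells by MDM2, a ubiquitin ligase that marks it for degradation, and by MDM4, which masks its activation domain. Damage and other stresses release it from both, and it then binds response elements made of a pair of 10-base motifs near genes for growth arrest, repair, cell death and metabolism, MDM2 among them. Many of these genes also answer to other factors.

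Library totals lay between 67502300 and 92513726 counts, and no library stood apart from its group on the first 2 principal components (47.3% and 24.1% of the variance). The melanoma regulators SOX10 (group means of 274 to 1099 CPM, counts scaled to library size) and MITF (54.4 to 149 CPM) were present in all groups, and PMEL (at most 2.17 CPM), MLANA (at most 1.85 CPM) and TYR (at most 0.182 CPM) were near 0. TADA2B itself read 30.2, 31.2 and 32.1 CPM in control cells in DMSO, 29.6, 31.1 and 30.6 with guide 1 and 29, 27.3 and 29.6 with guide 2, a knockout effect of -0.079 ± 0.037 on the log2 scale that did not pass (adjusted p = 0.0629), so the DMSO counts do not check the knockout label; in trametinib it was lower in knockout cells (-0.37 ± 0.036) and in vemurafenib too (-0.52 ± 0.036). In bulk RNA, fewer cells of a type and less RNA per cell cannot be told apart. All changes are relative to TMM scaling. Scaling to library totals instead raised the median change of all genes tested in control cells from 0.059 to 0.24 with trametinib, from 0.060 to 0.22 with vemurafenib and, in knockout cells in DMSO, from 0.00061 to 0.13.

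In control cells in DMSO the levels of the p53 targets, as TPM (per length and library, from GENCODE 29 exons), spanned from 252.9 ± 3.6 (SD, n = 3) for CCNG1 (cyclin G1, which brings a phosphatase to MDM2) to near 0. BAX, the pore-forming protein of the mitochondrial outer membrane, came next at 148 ± 0.65 TPM, before BTG1 at 117 ± 3.0, TRIAP1 at 91.9 ± 0.56 and TNFRSF10B at 85.0 ± 2.2. MDM2 was number 12 in this order, at 39.7 ± 0.76 TPM. Several neighbours did not differ beyond their spread: RRM2B (46.5 ± 1.6 TPM) and TP53I3 (45.0 ± 1.3), ZMAT3 (17.7 ± 0.95) and FDXR (17.4 ± 0.54), and PLK3 (9.02 ± 0.48) and TP53INP1 (8.97 ± 0.65). The lowest tested members were ACER2 (3.80 ± 0.24 TPM), TIGAR (2.69 ± 0.30) and TNFRSF10C (0.727 ± 0.22). SPATA18, a protein of mitochondrial quality control, had between 0 and 11 counts in any library and was not tested.

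Start-site sequences are shown here because some members rose and others fell with the drugs. RefSeq (GRCh38.p14) gave a window of 250 bases before to 50 after the start for 41 start sites of 27 members. The p53 decamer, the 10-base motif that a full p53 element holds as a pair, had an exact match on either strand in 7 of these 41 windows and in 6.63% of all 35116 windows. The windows with a match belonged to FAS, AEN, FDXR, DDB2, SESN1, PLK2 and RPS27L. For 6 of them the match (capitals) is given with 10 bases on either side, read along the gene's strand; the coordinates are those of the capitals.
FAS, chr10:88991309-88991318, plus strand: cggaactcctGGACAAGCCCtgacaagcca
AEN, chr15:88621306-88621315, plus strand: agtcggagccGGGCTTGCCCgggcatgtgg
FDXR, chr17:74872996-74873005, minus strand: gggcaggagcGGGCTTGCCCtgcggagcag
SESN1, chr6:109009028-109009037, minus strand: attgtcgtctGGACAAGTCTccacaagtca
PLK2, chr5:58460209-58460218, minus strand: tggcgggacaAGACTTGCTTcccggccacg
RPS27L, chr15:63157527-63157536, minus strand: ggcctagagcAGACAAGCCCgccccgccgc

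A pair of decamers was searched with at most 1 mismatch in each and at most 13 bases between them. It lay in 1.84% of all windows and in 3 of the 41 member windows, belonging to 2 members, MDM2 and DDB2. The DDB2 pair had 0 mismatches and 1 base between its parts, and the MDM2 pair had 2 mismatches and 0 bases between them; both are given whole in capitals.
DDB2, chr11:47214979-47214999, plus strand: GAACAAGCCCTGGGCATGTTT
MDM2, chr12:68808923-68808942, plus strand: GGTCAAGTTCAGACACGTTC

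The AP-1 motif was searched as TGANTCA on both strands because AP-1 factors lie downstream of MEK and ERK. It was found in 7.71% of all windows and in 5 of the 41 member windows, belonging to MDM2, FAS and EDA2R. The 2 windows below are those of PLK2, which rose with the drugs, and of AEN, which fell; each holds 1 decamer (capitals) and 0 AP-1 motifs. The windows of ZMAT3, TP53I3, PLK3 and GDF15, searched with them as members with large changes under trametinib, held neither motif. A match is a description of letters in these windows only.
PLK2, chr5:58460037-58460336, minus strand: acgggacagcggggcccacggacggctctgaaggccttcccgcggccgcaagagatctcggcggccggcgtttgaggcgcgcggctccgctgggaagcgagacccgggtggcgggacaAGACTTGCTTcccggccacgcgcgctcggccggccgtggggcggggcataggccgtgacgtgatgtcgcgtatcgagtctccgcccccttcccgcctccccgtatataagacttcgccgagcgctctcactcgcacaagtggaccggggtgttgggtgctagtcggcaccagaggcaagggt
AEN, chr15:88621090-88621389, plus strand: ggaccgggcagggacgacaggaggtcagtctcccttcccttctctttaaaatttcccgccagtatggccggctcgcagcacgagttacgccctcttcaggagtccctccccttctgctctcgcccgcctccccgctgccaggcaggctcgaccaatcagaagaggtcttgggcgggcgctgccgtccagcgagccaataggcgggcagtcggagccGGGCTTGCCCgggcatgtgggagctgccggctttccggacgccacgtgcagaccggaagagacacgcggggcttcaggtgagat

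The first comparison asks how the p53 targets of control cells moved in 24 h with an inhibitor of MEK or of mutant BRAF. Changes are log2 fold changes ± SE, given for trametinib and then vemurafenib where 2 values stand together, and a gene was called, or said to pass, at an adjusted p under 0.05 over all genes tested. With trametinib 21 of 33 members rose and 11 fell, and with vemurafenib 20 rose and 10 fell; both comparisons share the DMSO libraries. These shares stand against 69% of all genes tested called with trametinib (36.4% higher, 32.5% lower) and 67.3% with vemurafenib (35.7% higher, 31.6% lower); among the 15906 genes at 1 CPM or more, which include all 33 members, the shares called were 83.9% and 82.7%. The median member changed by 0.36 on the log2 scale with trametinib and by 0.40 with vemurafenib, where the median of all genes tested changed by 0.059 and 0.060. Changes of at least 2-fold were called for 6 rises and 5 falls with trametinib and for 6 rises and 3 falls with vemurafenib, against 29.6% and 27.5% of all genes in either direction. Mitochondrially encoded counts were 1.62% ± 0.053 of the total in DMSO, 2.20% ± 0.17 in trametinib and 2.27% ± 0.066 in vemurafenib (SD, n = 3), and the summed level of 8 melanoma markers was 1073, 2337 and 2370 CPM in the same order. The part of these differences in the changes was not tested.

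**Figure D1:**
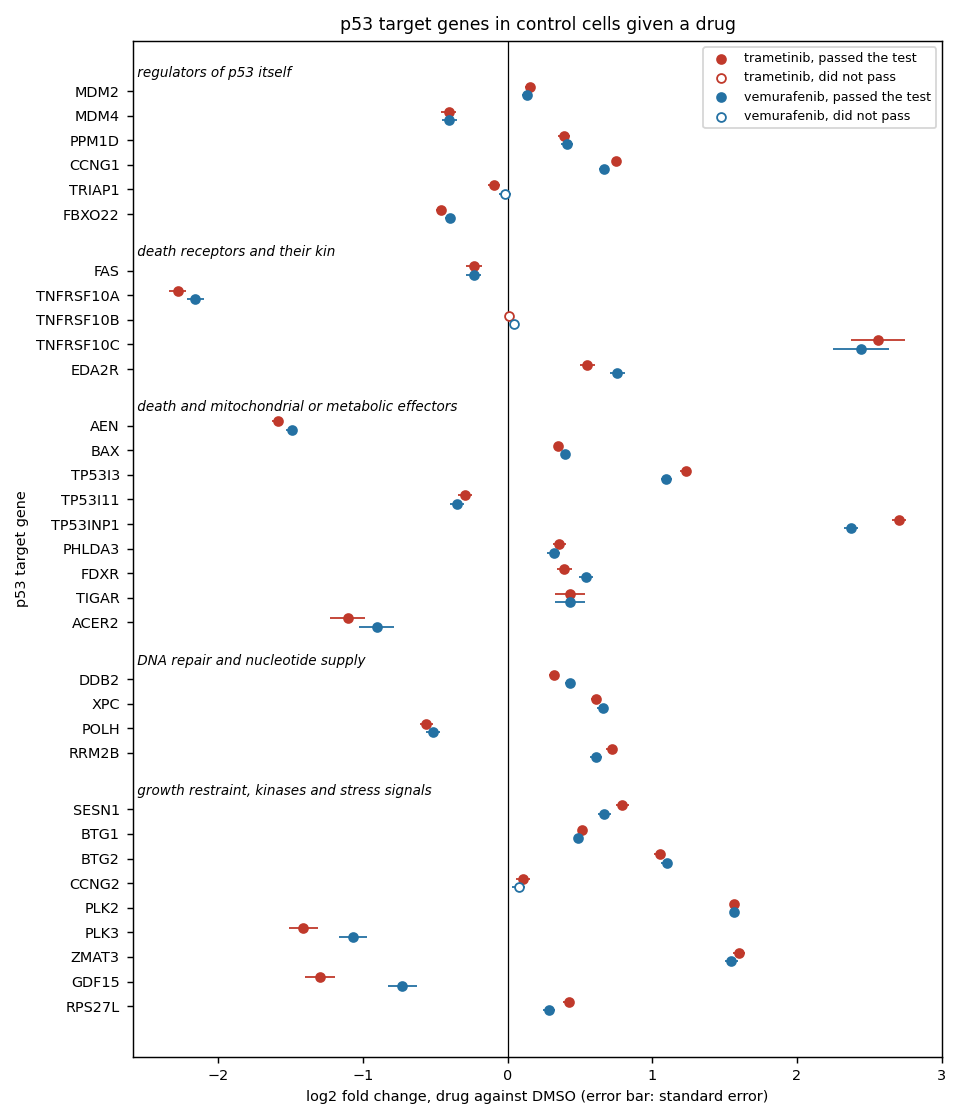
Log2 fold change (horizontal axis) of each of the 33 tested p53 targets in control cells, trametinib in red and vemurafenib in blue against DMSO, with standard errors; filled points passed the test. The paired points of most genes lie close together, and TP53INP1 (2.70 and 2.37) and TNFRSF10A (-2.28 and -2.16) mark opposite ends of the range.

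Of the 6 regulators of p53 itself, 3 rose and 3 fell with trametinib, and 3 rose and 2 fell with vemurafenib. MDM2 read 171, 169 and 170 CPM in DMSO, 195, 193 and 179 in trametinib and 189, 180 and 189 in vemurafenib. Every drug library lay above every DMSO library, but the rise was small, at 0.15 ± 0.034 (adjusted p = 1.17e-04) and 0.13 ± 0.034 (adjusted p = 7.94e-04). CCNG1 rose by 0.75 ± 0.032 and 0.67 ± 0.032, and PPM1D, a phosphatase that turns off p53 and its kinases, by 0.39 ± 0.038 and 0.41 ± 0.038. MDM4 fell (-0.41 ± 0.052 and -0.40 ± 0.052), as did FBXO22, a substrate receptor of an SCF ubiquitin ligase that acts on p53 (-0.46 ± 0.034 and -0.40 ± 0.034). TRIAP1, a small inhibitor of apoptosis in mitochondria, changed direction with the scaling: its change with trametinib was -0.092 ± 0.041 (lower, adjusted p = 0.0448) with TMM and 0.093 (higher, adjusted p = 0.0326) with library totals.

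The 5 death receptors and their kin went in different directions. TNFRSF10A, which carries the death signal of the ligand TRAIL, read 23.2, 24 and 25.2 CPM in DMSO, 4.94, 4.91 and 5.06 in trametinib and 5.5, 5.5 and 5.2 in vemurafenib. No drug library came near a DMSO library, and the changes were -2.28 ± 0.059 and -2.16 ± 0.058 (adjusted p = 7.00e-35 and 5.51e-34). TNFRSF10B, the other TRAIL receptor with a death domain, read 142, 143 and 140 CPM in DMSO, 145, 138 and 144 in trametinib and 147, 147 and 143 in vemurafenib. Its changes of 0.0087 ± 0.029 and 0.043 ± 0.029 did not pass, while with library totals both were called higher (0.19 and 0.20).

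TNFRSF10C, a decoy receptor for TRAIL without a death domain, was barely detected in DMSO, with 0.527, 0.285 and 0.502 CPM (22 to 38 counts), and reached 2.37, 2.76 and 2.57 CPM in trametinib and 2.17, 2.43 and 2.5 in vemurafenib. The rises were 2.56 ± 0.19 and 2.44 ± 0.19, at levels of at most 2.76 CPM, and 26% of the gene's exon bases are shared with a long noncoding RNA on the same strand. The 3 TNFRSF10 genes are close relatives, and how reads that match more than 1 of them were counted is not given in the sources used here, so their values are uncertain. EDA2R, a receptor for ectodysplasin A2, rose by 0.55 ± 0.053 and 0.76 ± 0.053. FAS, the receptor for FAS ligand, fell (-0.23 ± 0.054 and -0.24 ± 0.054), calls that were lost with library totals (-0.047 and -0.077).

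Among the 9 tested death, mitochondrial and metabolic effectors 6 rose and 3 fell with each drug. TP53INP1, a stress protein that promotes p53 phosphorylation and autophagy, read 17.5, 16 and 15.7 CPM in DMSO, 109, 110 and 101 in trametinib and 84.9, 83.4 and 86.6 in vemurafenib. The 3 sets of libraries did not overlap, and the rises were 2.70 ± 0.047 and 2.37 ± 0.047 (adjusted p = 6.82e-42 and 1.88e-39). TP53I3, a quinone oxidoreductase, rose by 1.23 ± 0.038 and 1.09 ± 0.038. AEN, a nuclease of apoptosis whose start-site window is shown above, read 135, 128 and 137 CPM in DMSO, 44.9, 42.4 and 45.7 in trametinib and 46.7, 49.1 and 46.6 in vemurafenib. No drug library came near a DMSO library, here too, and the changes were -1.59 ± 0.038 and -1.49 ± 0.038.

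ACER2, a Golgi ceramidase, read 2.76, 2.54 and 2.93 CPM in DMSO, 1.14, 1.25 and 1.44 in trametinib and 1.42, 1.29 and 1.67 in vemurafenib. All drug libraries lay below all DMSO libraries, with changes of -1.11 ± 0.12 and -0.90 ± 0.12 (adjusted p = 3.17e-11 and 4.53e-09). Smaller rises were called with both drugs for BAX (0.35 ± 0.030 and 0.40 ± 0.030), the AKT repressor PHLDA3 (0.36 ± 0.045 and 0.32 ± 0.045), the ferredoxin reductase FDXR (0.39 ± 0.050 and 0.54 ± 0.050) and the glycolysis regulator TIGAR (0.43 ± 0.10 and 0.43 ± 0.10). For TIGAR 42.6% of the exon bases are shared with another gene on the same strand, and for PHLDA3 19.1%. TP53I11, a protein named for its induction by p53, fell with both (-0.29 ± 0.049 and -0.35 ± 0.049).

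The DNA repair and nucleotide supply members split 3 to 1 with each drug. RRM2B, the p53-induced subunit of ribonucleotide reductase, rose by 0.72 ± 0.040 and 0.61 ± 0.040. The damage sensors of nucleotide excision repair also rose, XPC by 0.61 ± 0.036 and 0.66 ± 0.036 and DDB2, with its exact decamer pair, by 0.32 ± 0.034 and 0.43 ± 0.034. POLH, the translesion polymerase eta, fell (-0.56 ± 0.046 and -0.52 ± 0.046).

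Growth restraint genes, kinases and stress signals held the remaining large changes: 7 of 9 rose and 2 fell with trametinib, 6 rose and 2 fell with vemurafenib. ZMAT3, an RNA-binding zinc finger protein that regulates splicing, read 57.5, 53.3 and 53.9 CPM in DMSO, 169, 171 and 158 in trametinib and 161, 153 and 167 in vemurafenib. PLK2, a polo-like kinase, read 112, 114 and 117 CPM in DMSO, 332, 331 and 352 in trametinib and 345, 335 and 335 in vemurafenib. Both genes rose with no overlap between DMSO and drug libraries, ZMAT3 by 1.60 ± 0.042 and 1.55 ± 0.042 and PLK2 by 1.56 ± 0.029 and 1.56 ± 0.029.

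Its relative PLK3 went the other way, from 10.4, 9.48 and 10.5 CPM in DMSO to 3.8, 2.83 and 4.82 in trametinib and 5.15, 4.68 and 4.61 in vemurafenib. GDF15, a secreted stress cytokine, read 7.76, 8.81 and 9.34 CPM in DMSO, 2.96, 3.31 and 4.32 in trametinib and 5.58, 5.57 and 4.5 in vemurafenib. Both were lower in every drug library, PLK3 at -1.41 ± 0.10 and -1.07 ± 0.099 and GDF15 at -1.30 ± 0.11 and -0.73 ± 0.10. The antiproliferative genes BTG2 (1.05 ± 0.039 and 1.10 ± 0.039) and BTG1 (0.51 ± 0.030 and 0.49 ± 0.030) and the mTORC1 restrainer SESN1 (0.79 ± 0.045 and 0.67 ± 0.046) rose with both drugs. RPS27L, a ribosomal protein relative, rose by 0.42 ± 0.041 and 0.29 ± 0.041. CCNG2, cyclin G2, passed only with trametinib (0.10 ± 0.047, adjusted p = 0.0458) and not with vemurafenib (0.076 ± 0.047, adjusted p = 0.150). With library totals it was called higher with vemurafenib too (0.23).

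Set against each other in control cells, the drugs differed in 10 of 33 members, 5 higher and 5 lower with vemurafenib, where 16.3% of all genes tested were called (8.78% higher, 7.56% lower; 24.1% at 1 CPM or more); with library totals the split was 3 higher and 6 lower. GDF15 was 0.57 ± 0.11 higher with vemurafenib (adjusted p = 9.95e-05), PLK3 0.34 ± 0.11 and EDA2R 0.21 ± 0.051. TP53INP1 was lower, at -0.33 ± 0.042 (adjusted p = 1.46e-08), as were TP53I3 at -0.14 ± 0.036, RPS27L at -0.14 ± 0.041 and SESN1 at -0.12 ± 0.044. MDM2 did not pass (-0.021 ± 0.034). The largest difference, that of GDF15, was 1.48-fold, and the count fell to 6 without replicate 1 and to 3 without replicate 2 of control cells in trametinib; without the latter PLK3 stood at 0.16 (adjusted p = 0.37). Leaving out 1 library ended the call of SESN1 in 4 of 6 cases (adjusted p up to 0.31), of PLK3 in 3 (up to 0.37), of RPS27L in 2 (up to 0.22) and of TP53I3 in 1 (0.0557). SESN1 was also not called without the low-count filter, and neither SESN1 nor PLK3 with only the groups compared. FDXR was 0.15 higher with vemurafenib, a call lost with library totals (adjusted p = 0.067). It was also lost without replicate 1 or 2 of control cells in trametinib or replicate 3 in vemurafenib (up to 0.14).

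The next comparison sets TADA2B knockout cells against control cells within each treatment. In DMSO 21 of 33 members were higher in knockout cells (mean of both guides against control) and 8 were lower, against 57.9% of all genes tested called (29.3% higher, 28.6% lower; 75.2% at 1 CPM or more). In trametinib 17 were higher and 10 lower (55.9% of all genes called, 27.1% higher and 28.8% lower; 71.7% at 1 CPM or more), and in vemurafenib 16 and 10 (55.6%, 27.3% and 28.3%; 71%). The median member changed by 0.31 in DMSO, 0.081 in trametinib and 0.079 in vemurafenib, with medians of 0.00061, -0.019 and -0.015 over all genes. Changes of at least 2-fold were called for 1 member in DMSO, 3 in trametinib and 4 in vemurafenib, against 12.6%, 13.2% and 13.3% of all genes. With library totals the split in vemurafenib was 21 higher and 7 lower, and the DMSO calls of PPM1D and AEN were lost; FBXO22, TNFRSF10C and DDB2 in DMSO, BAX, XPC and ZMAT3 in both drugs and AEN and POLH in vemurafenib were called higher with library totals and not with TMM.

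In the same DMSO libraries the summed level of the 8 melanoma markers was 1073 CPM in control, 586 CPM in guide 1 and 370 CPM in guide 2 cells. The 4 fibroblast markers summed to 16.2, 36.5 and 45.4 CPM (COL1A1 at 5.70, 11.9 and 18.3), the 4 keratinocyte markers to 55.5, 61.6 and 57.2, and the leukocyte and endothelial lists to at most 0.887 and 5.23 CPM, with KRT1 at 0. Mitochondrially encoded counts were 1.62% ± 0.053 in control, 2.54% ± 0.20 in guide 1 and 2.60% ± 0.088 in guide 2 cells (SD, n = 3). In trametinib the melanoma markers summed to 2337 CPM in control, 792 CPM in guide 1 and 492 CPM in guide 2 cells, and the fibroblast markers to 20.5, 57.1 and 78.1 CPM; in vemurafenib these sums were 2370, 822 and 504 CPM and 20.6, 56.0 and 70.2 CPM. The part of these values in the knockout differences was not tested.

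**Figure D2:**
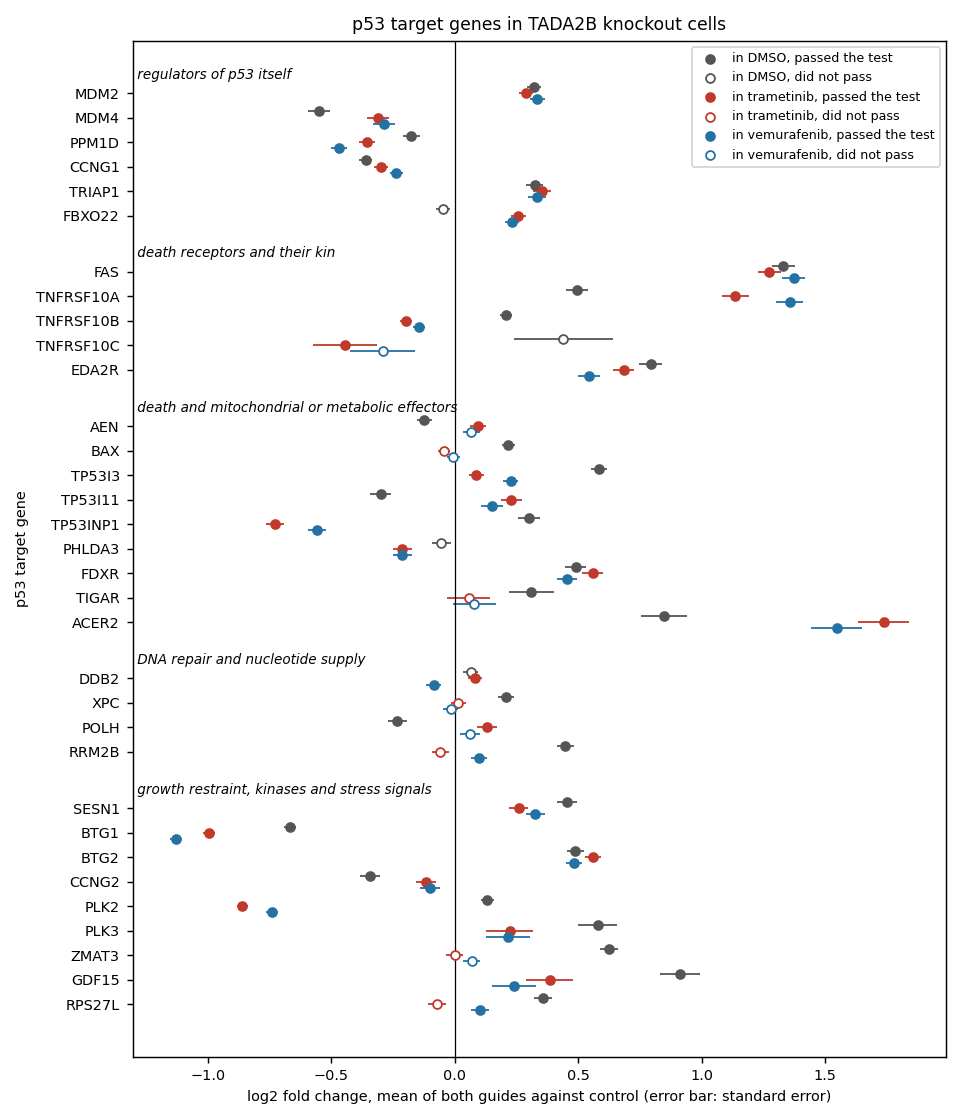
Log2 fold change (horizontal axis) of each of the 33 tested p53 targets in TADA2B knockout cells, mean of both guides against control cells, in DMSO (grey), trametinib (red) and vemurafenib (blue), with standard errors; filled points passed the test. FAS lies between 1.28 and 1.37 in the 3 treatments, while PLK2 and TP53INP1 lie right of 0 in DMSO and left of it in both drugs. For PLK2 in DMSO guide 1 alone was above control and guide 2 alone below it.

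Among the regulators, MDM2 was higher in knockout cells in all 3 treatments. It read 217, 208 and 216 CPM with guide 1 and 211, 213 and 210 with guide 2 in DMSO, against the control values of 171, 169 and 170 CPM. All 6 knockout libraries lay above the control libraries, and the difference was 0.32 ± 0.030 in DMSO (adjusted p = 3.76e-13), 0.29 ± 0.030 in trametinib and 0.33 ± 0.030 in vemurafenib. TRIAP1 was also higher by nearly the same amount in each treatment (0.32 ± 0.036, 0.35 ± 0.036 and 0.33 ± 0.036).

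MDM4, which read 86.5, 81.3 and 74 CPM in control cells in DMSO, read 54, 52.9 and 55 with guide 1 and 58.5, 53.8 and 56.3 with guide 2. CCNG1 went from 252, 252 and 253 CPM in control cells to 202, 199 and 200 with guide 1 and 196, 194 and 189 with guide 2. Neither gene's knockout libraries overlapped the control, at -0.55 ± 0.044 for MDM4 and -0.36 ± 0.028 for CCNG1, and both stayed lower in trametinib (-0.31 ± 0.045 and -0.30 ± 0.027) and in vemurafenib (-0.29 ± 0.045 and -0.24 ± 0.028). PPM1D was lower by more in the drugs, at -0.36 ± 0.033 in trametinib and -0.47 ± 0.033 in vemurafenib, than in DMSO (-0.18 ± 0.034). In vemurafenib PPM1D read 55.1, 54 and 51.1 CPM in control cells, 39.7, 41.3 and 39 with guide 1 and 36.4, 36.8 and 38.2 with guide 2. FBXO22 did not pass in DMSO (-0.048 ± 0.029) and was higher in trametinib (0.26 ± 0.029) and vemurafenib (0.23 ± 0.029).

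The death receptors held the largest knockout difference in DMSO. FAS read 13.7, 13 and 13.3 CPM in control cells, 32.1, 32.8 and 33.1 with guide 1 and 32.9, 35.1 and 35 with guide 2 in DMSO. In trametinib it read 10.5, 11.8 and 11.7 CPM in control cells, 24.8, 26.7 and 25.9 with guide 1 and 29.2, 29 and 29.2 with guide 2, and in vemurafenib 10.7, 11.6 and 11.7, 28.5, 27.6 and 27.5 and 30.4, 29.8 and 32.1. Knockout libraries were above every control library in all treatments, by 1.33 ± 0.045 in DMSO (adjusted p = 3.11e-29), 1.28 ± 0.046 in trametinib and 1.37 ± 0.046 in vemurafenib. On the opposite strand FAS shares 8.93% of its exon bases with ACTA2.

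TNFRSF10A read 32.6, 32 and 33.7 CPM with guide 1 and 34.3, 35.7 and 36.1 with guide 2 in DMSO. In trametinib it kept 9.79, 10.8 and 10.4 CPM with guide 1 and 11.3, 12.3 and 11.2 with guide 2, and in vemurafenib 12.6, 13 and 12.2 and 15.4, 15.4 and 14.7. The control values in the drugs, given above, were at most 5.5 CPM, and the difference was larger with trametinib (1.14 ± 0.055) and vemurafenib (1.36 ± 0.054) than in DMSO (0.50 ± 0.044). EDA2R read 11.2, 12.4 and 11.4 CPM in control cells, 20.5, 19.7 and 20.6 with guide 1 and 19.9, 20.4 and 20.6 with guide 2 in DMSO. It was higher in knockout cells in every treatment, at 0.79 ± 0.047, 0.68 ± 0.044 and 0.54 ± 0.043 in DMSO, trametinib and vemurafenib. TNFRSF10B was higher in DMSO (0.21 ± 0.025) and lower in trametinib (-0.20 ± 0.025) and vemurafenib (-0.14 ± 0.025), where the call in vemurafenib was lost with library totals (-0.033). TNFRSF10C, at most 2.76 CPM, passed only in trametinib (-0.44 ± 0.13, adjusted p = 0.00304).

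Of the effectors, ACER2 differed most in the drugs. It read 4.93, 5.1 and 5.25 CPM with guide 1 and 4.78, 4.85 and 4.71 with guide 2 in DMSO, 3.87, 4.63 and 3.92 and 4.35, 4.42 and 4.26 in trametinib, and 4.45, 4.25 and 4.02 and 3.99, 4.75 and 4.24 in vemurafenib. These levels, at least 3.87 CPM, exceeded those of every control library, by 0.85 ± 0.093 in DMSO, 1.74 ± 0.10 in trametinib and 1.55 ± 0.10 in vemurafenib. TP53INP1 read 22.4, 21.3 and 22 CPM with guide 1 and 19.8, 18.6 and 17.5 with guide 2 in DMSO, 69.9, 67.7 and 68.5 and 60.9, 60 and 60.8 in trametinib, and 62, 63.2 and 60 and 49.8, 53.7 and 58.2 in vemurafenib. It was thus higher than the control in DMSO (0.30 ± 0.044) and lower in trametinib (-0.73 ± 0.035) and in vemurafenib (-0.56 ± 0.036), with no overlap in either drug, while in DMSO the lowest guide 2 library and the highest control library both read 17.5 CPM.

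TP53I3 and FDXR were higher in all treatments, TP53I3 by 0.58 ± 0.034 in DMSO, 0.087 ± 0.031 in trametinib and 0.23 ± 0.031 in vemurafenib and FDXR by 0.49 ± 0.044, 0.56 ± 0.042 and 0.46 ± 0.042. BAX (0.22 ± 0.026) and TIGAR (0.31 ± 0.092) were higher in DMSO and did not pass in either drug. TP53I11 was lower in DMSO (-0.30 ± 0.042) and higher in trametinib (0.23 ± 0.043) and vemurafenib (0.15 ± 0.043). PHLDA3 did not pass in DMSO (-0.055 ± 0.039) and was lower in trametinib (-0.21 ± 0.038) and in vemurafenib (-0.21 ± 0.039).

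The repair and nucleotide genes differed less. RRM2B (0.45 ± 0.035) and XPC (0.21 ± 0.032) were higher in DMSO, and POLH was lower (-0.23 ± 0.039). In the drugs the remaining values of these genes and DDB2 lay between -0.086 ± 0.029 (DDB2 in vemurafenib, lower, a call lost with library totals at 0.025) and 0.13 ± 0.040 (POLH in trametinib, higher). For XPC 23.8% of the exon bases are shared with an antisense gene.

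In the growth restraint group, BTG1 was the lowest relative to control cells. BTG1 read 185, 178 and 186 CPM in control cells, 136, 137 and 136 with guide 1 and 99.2, 99.2 and 94 with guide 2 in DMSO. In trametinib the control libraries read 265, 259 and 260 CPM and the knockout libraries 145, 144 and 146 with guide 1 and 118, 117 and 119 with guide 2, and in vemurafenib 268, 244 and 257, 131, 136 and 132 and 104, 103 and 101. The populations did not overlap, and guide 2 was always the lowest; the mean difference was -0.67 ± 0.026 in DMSO (adjusted p = 3.20e-27), -0.997 ± 0.025 in trametinib and -1.13 ± 0.025 in vemurafenib. BTG2, its relative, was higher in all treatments (0.49 ± 0.035, 0.56 ± 0.032 and 0.48 ± 0.032).

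GDF15 read 13.9, 12.8 and 13.4 CPM with guide 1 and 18.7, 19.6 and 21 with guide 2 in DMSO, above all control libraries. Its difference was 0.91 ± 0.083 in DMSO (adjusted p = 3.50e-13), 0.38 ± 0.097 in trametinib and 0.24 ± 0.090 in vemurafenib. PLK3 followed with 0.58 ± 0.080, 0.22 ± 0.094 and 0.22 ± 0.090. CCNG2 read 36, 36.2 and 37.2 CPM in control cells, 28.9, 28.9 and 28.3 with guide 1 and 29.4, 27.9 and 28.9 with guide 2 in DMSO. It was lower there without overlap (-0.34 ± 0.041) and by less in trametinib (-0.12 ± 0.040) and vemurafenib (-0.0997 ± 0.040), where both calls were lost with library totals (-0.010 and 0.011).

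PLK2 read 149, 148 and 149 CPM with guide 1 and 106, 105 and 106 with guide 2 in DMSO, 207, 217 and 219 and 160, 161 and 165 in trametinib, and 233, 239 and 234 and 175, 176 and 172 in vemurafenib. In the drugs every knockout library lay under the control libraries, at -0.86 ± 0.023 in trametinib and -0.74 ± 0.024 in vemurafenib, while in DMSO the guides lay on either side of the control. ZMAT3 was higher in DMSO (0.63 ± 0.038) and did not pass in trametinib (-0.00049 ± 0.034) or vemurafenib (0.069 ± 0.035). SESN1 was higher in all treatments (0.45 ± 0.041, 0.26 ± 0.038 and 0.33 ± 0.038), and RPS27L in DMSO (0.36 ± 0.036) and vemurafenib (0.10 ± 0.035).

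**Figure D3:**
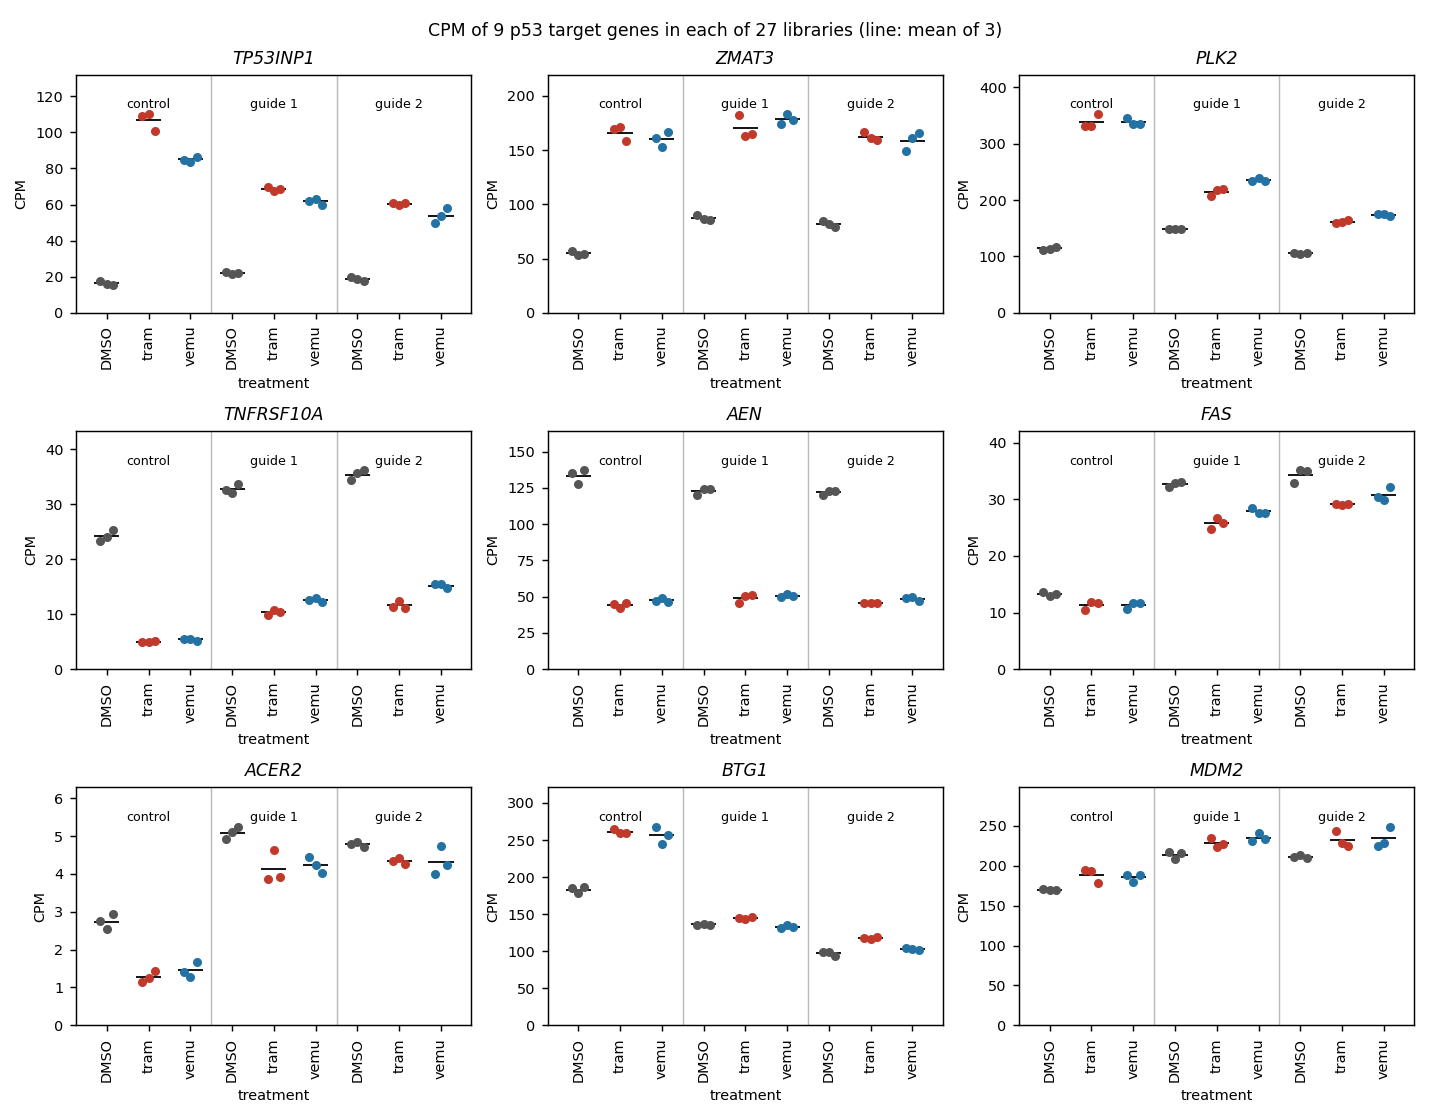
Level in CPM (vertical axis, from 0) of 9 p53 targets in each of the 27 libraries, by treatment within control cells, guide 1 and guide 2; points are libraries and lines are means of 3. FAS separates control from knockout cells in every treatment, and the drug-treated control libraries of TP53INP1 (83.4 to 110 CPM) lie above all knockout libraries.

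Across the 33 members, 12 were higher in knockout cells in all 3 treatments (MDM2, TRIAP1, FAS, TNFRSF10A, EDA2R, TP53I3, FDXR, ACER2, SESN1, BTG2, PLK3 and GDF15) and 5 were lower in all (MDM4, PPM1D, CCNG1, BTG1 and CCNG2). Of the 21 higher in DMSO, 12 were also higher in trametinib, 6 did not pass and 3 were lower, namely TNFRSF10B, TP53INP1 and PLK2. In vemurafenib 14 of the 21 were higher, 4 did not pass and TNFRSF10B, TP53INP1 and PLK2 were lower. PLK2 counts as higher in DMSO by the mean of the guides. Guide 1 was higher than control there (0.38) and guide 2 lower (-0.11). Of all genes tested 14.4% were higher in all 3 treatments and 14.1% lower (18.6% and 20.9% at 1 CPM or more). Of the 7380 genes higher in DMSO, 54.3% were also higher in trametinib, 29.2% did not pass and 16.5% were lower. In vemurafenib these shares were 56.7%, 28.9% and 14.4%. At 1 CPM or more they were 56%, 24.1% and 19.9% in trametinib and 58.2%, 24.4% and 17.4% in vemurafenib. With library totals PPM1D in DMSO, CCNG2 in both drugs and TNFRSF10B in vemurafenib were not called. The 3 comparisons share no libraries.

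The drug responses of knockout cells were then compared with those of control cells by an interaction test. In knockout cells 21 members rose and 10 fell with trametinib, and 20 rose and 10 fell with vemurafenib. Of all genes tested 71.4% were called with trametinib (37.2% higher, 34.3% lower) and 69.1% with vemurafenib (36% and 33.1%). At 1 CPM or more the shares called were 84.7% and 83.4%. With library totals the members split into 23 rises and 6 falls with each drug. The falls of MDM4, FBXO22 and ACER2 were then lost with both, that of POLH with trametinib and that of FAS with vemurafenib. The response differed in 24 members for trametinib (8 positive and 16 negative interaction terms) and in 26 for vemurafenib (9 and 17). A term is the log2 response in knockout cells minus that in control cells, so a positive term can be a smaller fall. Of all genes tested 43.9% (20.8% positive, 23.2% negative) and 42.5% (20% and 22.4%) were called, and 61.2% and 60% of those at 1 CPM or more.

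Most of these differences were smaller responses, counted by an interaction term opposite in sign to the control response, also where the knockout response was absent or reversed. Of the 21 members that rose with trametinib in control cells, 13 (61.9%) had a term against the rise and 1 (4.76%) a term with it. Of all rising genes these were 49.3% and 5.38%. Of the 11 that fell, 7 (63.6%) had a term against the fall and 2 (18.2%) a term with it, against 50.7% and 8.05% of all falling genes. With vemurafenib 14 of 20 risers (70%) and 7 of 10 fallers (70%) had a term against the change, beside 49.9% and 52.1% of all such genes. A term with the change was called for 1 riser (5%) and 2 fallers (20%), beside 3.96% and 6.74%. The 7 fallers with either drug include TP53I11, which was called higher with the drug in knockout cells. Of all genes tested, 990 with trametinib and 879 with vemurafenib were called in opposite directions in control and knockout cells. These shares were not taken among genes at 1 CPM or more, where interactions were called more often (61.2% and 60%). The response of MDM2 was not called different, with interaction terms of -0.032 ± 0.042 and 0.014 ± 0.042 that did not pass. Its rise in knockout cells was 0.12 ± 0.024 with trametinib and 0.14 ± 0.024 with vemurafenib.

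The interaction terms use the same libraries as the knockout differences above and restate them as responses. TP53INP1 rose by 1.67 ± 0.033 with trametinib and 1.51 ± 0.033 with vemurafenib in knockout cells, with interaction terms of -1.03 ± 0.057 (adjusted p = 1.31e-20) and -0.86 ± 0.057. PLK2 rose by 0.57 ± 0.020 and 0.69 ± 0.020, with terms of -0.99 ± 0.035 and -0.87 ± 0.035. ZMAT3 rose by 0.97 ± 0.029 and 0.99 ± 0.029, with terms of -0.63 ± 0.051 and -0.56 ± 0.051. With TMM scaling the level of ZMAT3 was called different between knockout and control cells in DMSO and not in the drugs, and with library totals it was called higher in both drugs too (0.11 and 0.18). TNFRSF10C rose by 1.68 ± 0.13 and 1.71 ± 0.13, with interaction terms of -0.88 ± 0.24 and -0.73 ± 0.24, the latter not called without replicate 2 of the DMSO control (-0.49, adjusted p = 0.12).

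Smaller falls were largest for ACER2 and TNFRSF10A. ACER2 fell in knockout cells (-0.22 ± 0.070 and -0.21 ± 0.071), with interaction terms of 0.89 ± 0.14 and 0.70 ± 0.14. TNFRSF10A still fell (-1.64 ± 0.037 and -1.30 ± 0.037), with interaction terms of 0.64 ± 0.070 and 0.86 ± 0.069. POLH fell (-0.20 ± 0.032 and -0.22 ± 0.033), with terms of 0.36 ± 0.056 and 0.29 ± 0.056. TP53I11 reversed: it read 33.1, 34.7 and 32 CPM in DMSO, 26.8, 26.5 and 28.2 in trametinib and 27, 26.9 and 24.3 in vemurafenib in control cells. With guide 1 it read 28.1, 28.2 and 26.3, 33.5, 33.3 and 33.2 and 30.8, 31.1 and 30.9, and with guide 2 27.3, 25.6 and 26.7, 30.3, 31.8 and 29.2 and 27.8, 28.6 and 24.8. It was lower with the drugs in control cells and higher with them in knockout cells (0.24 ± 0.035 and 0.0997 ± 0.035), with interaction terms of 0.53 ± 0.060 and 0.45 ± 0.060.

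A few members fell further in knockout cells. GDF15 dropped to 4.22, 5.02 and 4.42 CPM with guide 1 and 4.54, 4.94 and 4.37 with guide 2 in trametinib, and to 5.43, 6.55 and 5.52 and 5.87, 7.28 and 6.37 in vemurafenib. These levels came close to those of control cells, and the changes of -1.82 ± 0.069 and -1.40 ± 0.067 differed from those of control cells by -0.53 ± 0.13 and -0.67 ± 0.12. PLK3 fell (-1.77 ± 0.068 and -1.43 ± 0.067), with terms of -0.36 ± 0.12 and -0.36 ± 0.12. TNFRSF10B, whose changes in control cells did not pass, fell in knockout cells (-0.40 ± 0.020 and -0.31 ± 0.020). The interaction terms of BTG2, FDXR, FAS, TIGAR and TRIAP1 did not pass with either drug, and lay between -0.25 ± 0.13 (TIGAR) and 0.070 ± 0.047 (BTG2) for trametinib.

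**Figure D4:**
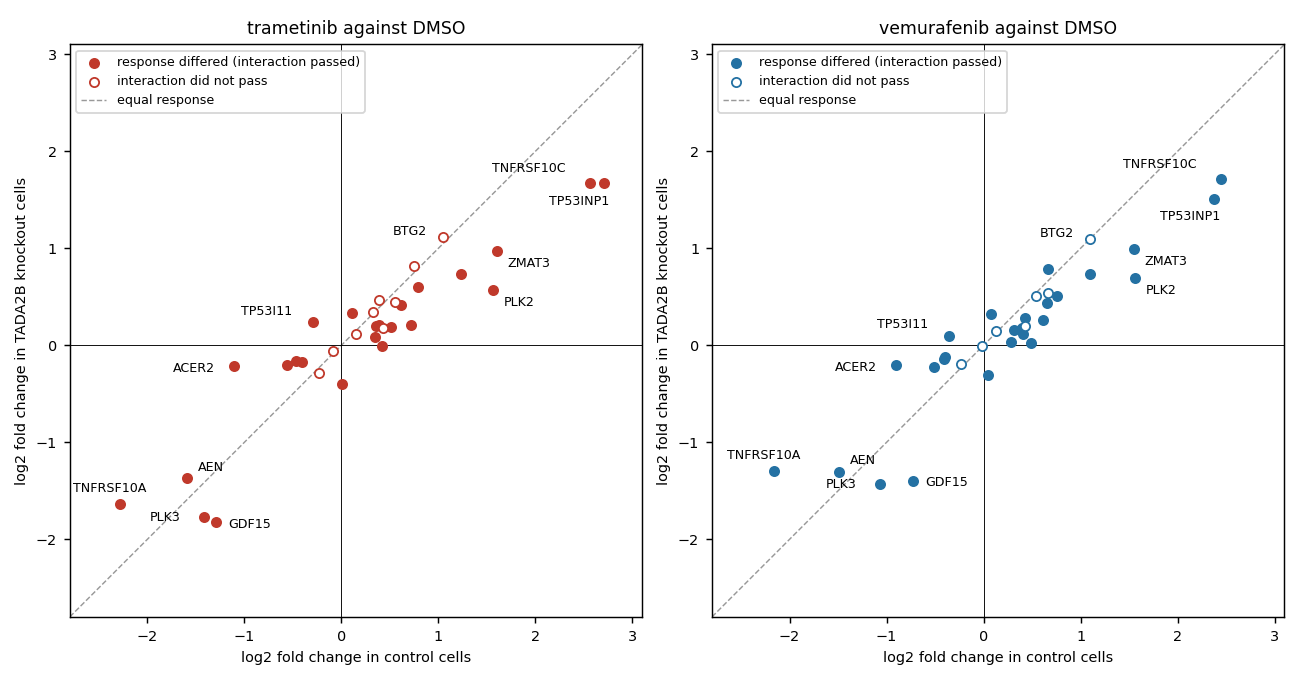
Log2 fold change with trametinib (left) and vemurafenib (right) in control cells (horizontal axis) and in TADA2B knockout cells (vertical axis) for the 33 tested p53 targets; filled points have an interaction that passed, and the dashed line marks equal responses. Most filled points lie nearer to 0 on the vertical than on the horizontal axis, and TP53I11 lies at negative values in control and positive values in knockout cells.

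The guides were compared with each other in each treatment. In DMSO 7 of 33 members differed, 2 higher and 5 lower with guide 2 (11.9% of all genes called, 4.64% higher and 7.29% lower; 17.5% at 1 CPM or more), with a split of 6 higher and 4 lower under library totals. In trametinib 11 differed, 4 higher and 7 lower (19.7%, 10.8% and 8.91%; 29.2%), and in vemurafenib again 4 and 7 (16%, 7.12% and 8.85%; 23.5%). Against the same control cells in DMSO, 30 members were called with guide 1 and 30 with guide 2. Of all genes 52% and 54.9% were called, and of those at 1 CPM or more 69.4% and 72.1%. PLK2 was called in opposite directions, at 0.38 ± 0.029 with guide 1 and -0.11 ± 0.029 with guide 2. PLK2 was lower with guide 2 than with guide 1 in every treatment (-0.49 ± 0.029, -0.40 ± 0.028 and -0.43 ± 0.028), and so was BTG1 (-0.48 ± 0.031, -0.30 ± 0.030 and -0.37 ± 0.030). TP53INP1 (-0.23 ± 0.049, -0.18 ± 0.042 and -0.20 ± 0.043) and TNFRSF10B (-0.094 ± 0.028, -0.19 ± 0.029 and -0.16 ± 0.029) were also lower with guide 2 throughout, TNFRSF10B in DMSO only with TMM scaling.

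BAX was higher with guide 2 in all treatments, reading 123, 123 and 126 CPM in control cells, 134, 136 and 131 with guide 1 and 150, 158 and 157 with guide 2 in DMSO. The guide difference was 0.21 ± 0.030 in DMSO, 0.13 ± 0.029 in trametinib and 0.12 ± 0.029 in vemurafenib, the last not called without replicate 2 of guide 1 (adjusted p = 0.0519). GDF15 differed in DMSO (0.56 ± 0.089, adjusted p = 4.01e-06), where guide 2 lay above guide 1 in every library, and not in trametinib (0.017 ± 0.11) or vemurafenib (0.16 ± 0.10). TNFRSF10A was higher with guide 2 in trametinib (0.17 ± 0.056) and vemurafenib (0.27 ± 0.054), the former call lost without replicate 1 (adjusted p = 0.15) or replicate 3 (0.0533) of guide 1 or replicate 2 of guide 2 (0.20). TNFRSF10C, at 32 to 65 counts, was lower with guide 2 in DMSO (-0.75 ± 0.22), a call lost without replicate 1 or 2 of guide 1 (adjusted p = 0.0703 and 0.0828) or replicate 2 of guide 2 (0.0950). FAS was higher with guide 2 in trametinib, at a mean of 29.1 CPM against 25.8 CPM with guide 1. No left-out library ended that call. In vemurafenib the calls of FAS (0.14 ± 0.047), POLH (0.15 ± 0.046) and TP53I11 (-0.19 ± 0.049) were lost without single libraries, at adjusted p up to 0.15, 0.11 and 0.064.

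CDKN1A, the cell cycle inhibitor p21 and a p53 target outside the list, read 144, 145 and 146 CPM in DMSO and 306, 301 and 324 in trametinib in control cells, and 285, 287 and 286 with guide 1 and 275, 272 and 270 with guide 2 in DMSO. It rose with trametinib by 1.10 ± 0.034 in control cells and by 0.36 ± 0.023 in knockout cells, with an interaction term of -0.74 ± 0.041.

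Among 30 other regulators and partners of p53, 7 were higher and 17 lower with trametinib in control cells, and 8 and 15 with vemurafenib, beside the 69% and 67.3% of all genes tested, and 83.9% and 82.7% of those at 1 CPM or more, called in either direction. TP73, a p53 relative, fell (-2.17 ± 0.11 and -2.26 ± 0.11), and so did the checkpoint kinases CHEK2 (-1.49 ± 0.074 and -1.52 ± 0.074) and CHEK1 (-1.48 ± 0.040 and -1.36 ± 0.040). Changes in this list, called or not, lay between -2.17 and 3.21 with trametinib and between -2.26 and 1.57 with vemurafenib. In knockout cells in DMSO 6 were higher and 17 lower (57.9% of all genes tested called, 75.2% at 1 CPM or more), with PRKDC, the DNA-dependent protein kinase, at -0.74 ± 0.023. Against the same shares of all genes, of 29 tested further p53 targets outside the 34, 16 rose and 8 fell with trametinib, and 19 rose and 8 fell with vemurafenib. TRIM22 rose by 2.60 ± 0.11 and 2.32 ± 0.11, and LIF, a cytokine, fell (-2.12 ± 0.068 and -2.13 ± 0.068). Changes in this second list, called or not, lay between -2.99 and 2.60 with trametinib and between -2.36 and 2.32 with vemurafenib. In knockout cells in DMSO 20 of the 29 were higher and 4 lower, led by SFN, the adaptor 14-3-3 sigma (3.15 ± 0.088), TRIM22 (2.95 ± 0.097) and the tetraspanin CD82 (2.07 ± 0.056).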

How the data were processed

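The authors deposited 1 table of whole-number read counts per Ensembl gene for the 27 polyA libraries, and, per the submitters' processing notes, bcl2fastq, HISAT2 and HTSeq were used with hg38. For versions, annotation release and strand setting the entry is: not given in the sources used here. Of 58721 identifiers all matched GENCODE 29, which gave symbols, exon lengths and overlaps. Rows without a gene name numbered 0 and rows without a count 12466.

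Groups came from titles, genotype and treatment labels. Counts were tested with edgeR 4.0.16 (R 4.3.3): filterByExpr left 25199 genes, TMM factors lay between 0.866 and 1.09, and 9 group means were fitted with glmQLFit (robust), leaving 18 residual degrees of freedom and a biological coefficient of variation of 4.02%. Every adjusted p in the text is from edgeR's quasi-likelihood F test with Benjamini-Hochberg adjustment over all genes tested. CPM are counts scaled by library total times TMM factor. Replicates differed by more than sampling noise (chi-square per degree of freedom 2.94 to 12.0). The fit was tested on simulated data. The knockout effect is the mean of both guides minus control, the interaction is the response to a drug in knockout cells minus the response in control cells, and the guide difference is guide 2 minus guide 1.

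Alternatives were DESeq2 1.42.0 size factors and Wald test, limma 3.58.1 voom, library totals, no low-count filter, only the groups compared, a 1.5-fold minimum, a replicate block and leaving out each library. Described with values in every library are MDM2 and, in each comparison, at most 4 called members per direction with the largest change; BAX and TNFRSF10B were added after their values were seen. Promoters of at most 6 members were considered, and of each other list at most 3 genes per direction are named. The members and lists were chosen with earlier results of these data known. A few genes that the rule picks from the other lists are not given.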

Additional observations from a re-analysis of the deposited data

Results flagged for a closer look

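The response to trametinib differed between knockout and control cells in 24 of the 33 tested p53 targets, and that to vemurafenib in 26, by the interaction test, where 43.9% and 42.5% of all genes tested were called, and 61.2% and 60% of those at 1 CPM or more. TP53I11 was called in opposite directions: with trametinib it changed by -0.29 in control cells and 0.24 in knockout cells, a difference of 0.53 (adjusted p = 2.11e-10), and with vemurafenib by -0.35 and 0.10, a difference of 0.45 (adjusted p = 1.59e-08).

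The guides differed in 7 members in DMSO, in 11 in trametinib and in 11 in vemurafenib, where 11.9%, 19.7% and 16% of all genes tested were called, and 17.5%, 29.2% and 23.5% of those at 1 CPM or more. PLK2 in DMSO was higher than control with guide 1 (0.38) and lower with guide 2 (-0.11), a guide difference of -0.49 (adjusted p = 9.61e-19).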

How the results depend on the processing

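A minimum of 1.5-fold reduced the number of called members to 15 with trametinib and 16 with vemurafenib in control cells and 0 between the drugs, to 11 with each drug in knockout cells, to 6, 7 and 5 for the knockout in DMSO, trametinib and vemurafenib, to 6 and 6 for the interactions, and to 1, 0 and 0 for the guides in the same order of treatments; of all genes tested, 44.1%, 42.2%, 3.29%, 37.1%, 34%, 22.6%, 21.5%, 21.8%, 16.8%, 15.5%, 2.37%, 3.39% and 3.13% were called at this minimum, in the order just given. Leaving out a library gave 30 to 31 members with trametinib and 30 to 31 with vemurafenib in control cells, 3 to 12 between the drugs, 30 to 32 and 29 to 30 in knockout cells, 29 to 30, 23 to 29 and 23 to 27 for the knockout, 22 to 25 and 24 to 27 for the interactions, and 5 to 8, 8 to 11 and 9 to 12 for the guides. Of 115 members' changes named by rule, 0 reversed under any alternative run (TRIAP1, outside these, did with library totals); 29 of 1095 values without a library and 10 of 805 under the other alternatives lost their call. Same-numbered libraries did not deviate together (108 pairs, r between -0.353 and 0.347, median 0.0046; 12 of 27 libraries correlated best with their own number), so the numbers were not taken as pairs; with the replicate block 31 members were called with trametinib in control cells and 9 between the drugs, and the other counts equalled those without it. Depth limits TNFRSF10C (22 to 229 counts) and SPATA18 (at most 11) most; the guides' small differences rest on 3 libraries each.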
